A study of Homo sapiens with 6 samples.

Results

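The peaks described are the sites at which a PRMT5 antibody gave enriched chromatin signal over a control in PC3, an androgen-independent human prostate cancer cell line. They are all 1661 entries on chromosomes 1 to 22, X and Y among the 1721 entries of the PC3 PRMT5 peak list, out of 10267 such entries in the 4 peak lists of the study. PC3 and LNCaP, an androgen-responsive prostate cancer line, were each profiled with a PRMT5 antibody, a METTL3 antibody and a control, 1 library per group and 6 in all, from 100000 cells with 16 PCR cycles. No treatment or genetic change is named for either line, and both grew in the same serum-containing medium. The control is titled IgG while its antibody field names a secondary antibody, and it entered only through the peak calls. Cells were held on beads and a protein G-Tn5 transposase cut and tagged the chromatin where antibody was bound.

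PRMT5 is an arginine methyltransferase that works with the partner protein WDR77 and places symmetric dimethyl marks on histones and on RNA-binding proteins of the splicing machinery. It has no DNA-binding domain of its own and reaches chromatin through other proteins. The E-box CACGTG is read by basic helix-loop-helix factors such as MYC with MAX, USF1, USF2 and the MiT-TFE family. Of these, TFEB and TFE3 are known for lysosome and autophagy genes, whose promoters carry an E-box within a longer element called CLEAR. A peak is neither expression nor a direct contact of PRMT5 with DNA, and peaks cannot be checked against cell type markers.

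Each group had 1 library, so no difference below has a replicate check and none was tested. The number of reads is unknown. The fold of a peak over control is the authors' own value and serves only to describe or rank peaks within its list. Intervals are exact (Clopper-Pearson) 95% binomial intervals over peaks, genes or promoters and cover counting error only. Positions are on hg38, and genes, starts and sequences are from RefSeq on GRCh38.p14.

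Of the elements searched, the E-box had the widest gap in share, in percentage points, between promoters under PC3 PRMT5 peaks and all promoters, and it lay close to the summits. The first sequences are from the promoters with the 12 highest folds at gene starts, where a listed promoter held an E-box. They are 50 bases each, on the strand of the gene, 5′ to 3′. Capitals mark the E-box CACGTG or, where T and A flank it, the palindrome TCACGTGA, called the extended E-box here.
ACTMAP (chr19:40750537-40750586, minus strand): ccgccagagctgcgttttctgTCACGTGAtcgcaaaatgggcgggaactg
RMND1 (chr6:151452199-151452248, minus strand): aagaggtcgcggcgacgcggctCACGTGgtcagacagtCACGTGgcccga
TRMO (chr9:97922253-97922302, minus strand): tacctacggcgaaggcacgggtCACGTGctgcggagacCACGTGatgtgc
THRAP3 (chr1:36224225-36224274, plus strand): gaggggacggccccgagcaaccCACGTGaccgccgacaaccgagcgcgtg
EIF4H (chr7:74174135-74174184, plus strand): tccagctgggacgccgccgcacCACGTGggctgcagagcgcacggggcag
ATP6V0D1 (chr16:67481189-67481238, minus strand): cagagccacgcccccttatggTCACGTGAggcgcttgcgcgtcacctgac
The distance between summit and E-box centre was 6.5 bp at RMND1, 14.5 bp at THRAP3, 21.5 bp at EIF4H, 21.5 bp at ATP6V0D1, 33.5 bp at ACTMAP and 62.5 bp at TRMO. RMND1 and TRMO each show a pair of E-boxes within the 50 bases.

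The next set shows members of the lysosome lists, taken by fold under a rule set when earlier results of these data were known. SPNS1 is a lysosomal lysolipid transporter, RRAGC a Rag GTPase of the mTORC1 nutrient pathway, GALNS a lysosomal sulfatase and NEU1 the lysosomal sialidase.
SPNS1 (chr16:28974704-28974753, plus strand): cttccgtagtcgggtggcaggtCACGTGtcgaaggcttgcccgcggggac
RRAGC (chr1:38859857-38859906, minus strand): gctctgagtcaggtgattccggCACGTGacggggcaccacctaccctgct
GALNS (chr16:88857094-88857143, minus strand): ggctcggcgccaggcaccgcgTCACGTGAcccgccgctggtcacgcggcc
NEU1 (chr6:31862920-31862969, minus strand): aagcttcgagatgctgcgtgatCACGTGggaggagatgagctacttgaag
Here the E-box centre lay 30.5 bp from the summit at SPNS1, 44.5 bp at RRAGC, 56.5 bp at GALNS and 28.5 bp at NEU1.

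Of these promoters, LAMP1 and WASHC2C held the most E-boxes, 6 and 3 in the 300 bases from 250 before to 50 after the start. LAMP1 is a major glycoprotein of the lysosomal membrane and WASHC2C a subunit of the WASH complex, which acts in endosomal sorting. The 250 bases upstream of each start follow.
LAMP1 (chr13:113296989-113297238, plus strand): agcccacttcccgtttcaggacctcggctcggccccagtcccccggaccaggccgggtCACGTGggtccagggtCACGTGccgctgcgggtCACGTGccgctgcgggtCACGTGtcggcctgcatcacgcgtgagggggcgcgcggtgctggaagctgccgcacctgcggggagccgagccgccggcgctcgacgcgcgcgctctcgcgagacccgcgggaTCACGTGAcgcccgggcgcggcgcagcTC
WASHC2C (chr10:45727016-45727265, plus strand): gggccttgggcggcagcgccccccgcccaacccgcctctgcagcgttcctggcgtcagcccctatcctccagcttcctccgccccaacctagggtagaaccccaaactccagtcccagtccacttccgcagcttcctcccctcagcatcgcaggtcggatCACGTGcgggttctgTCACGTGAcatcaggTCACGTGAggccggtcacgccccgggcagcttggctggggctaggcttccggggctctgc
In LAMP1, 5 E-boxes lay wholly upstream, 1 of them extended, and the sixth ran across the start, so that its first letters close the printed line. In WASHC2C, 3 lay upstream, 2 of them extended. The LAMP1 summit lay 98 bp and the WASHC2C summit 111 bp upstream of the start.

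Peaks of the list had a median fold of 5.89 (interquartile range 5.01 to 7.06, range 1.16 to 47.1). In 118 peaks the fold was at least 10. The median width was 231 bp and the smallest, 164 bp, was shared by 287 peaks. The largest was 2387 bp, and 23 peaks were 1 kb or wider. The 8 commonest folds ran from 5.01 to 7.06 in steps of 0.294 and took in 285 peaks (17.2%), so many weak peaks sat on a few discrete values. In 69 peaks (4.15%) the fold was under 3, and 33 of these (47.8%) overlapped a LNCaP PRMT5 peak.

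Most peaks lay away from gene starts, but starts held far more of them than their length. A peak was taken to be at a start when its summit lay within 1 kb of a listed start, or of either end for the 4194 of 20037 protein-coding genes with no listed start. By this rule 257 peaks (15.5%, 13.8 to 17.3) were at a start, where the windows covered 1.68% of chromosome length, 9.19 times that share. A further 778 peaks (46.8%, 44.4 to 49.3) lay inside a gene, where genes outside those windows cover 39.8% of the length. The remaining 626 (37.7%, 35.4 to 40.1) lay outside genes, against 58.5% of the length. Median folds were 6.21 at starts, 5.76 inside and 5.92 outside. The share at starts was 13.4%, 12.9% and 12.9% in the 3 lower quartiles of fold and 23.2% (19.1 to 27.6) in the highest.

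In LNCaP, the PRMT5 list had 26.6% (23.9 to 29.5) of its peaks at a start and 32.9% inside a gene. The METTL3 list of PC3, called against the same control as the PC3 PRMT5 list, had 1.61% at a start, close to the 1.68% of the length. Neither difference was tested.

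**Figure D1:**
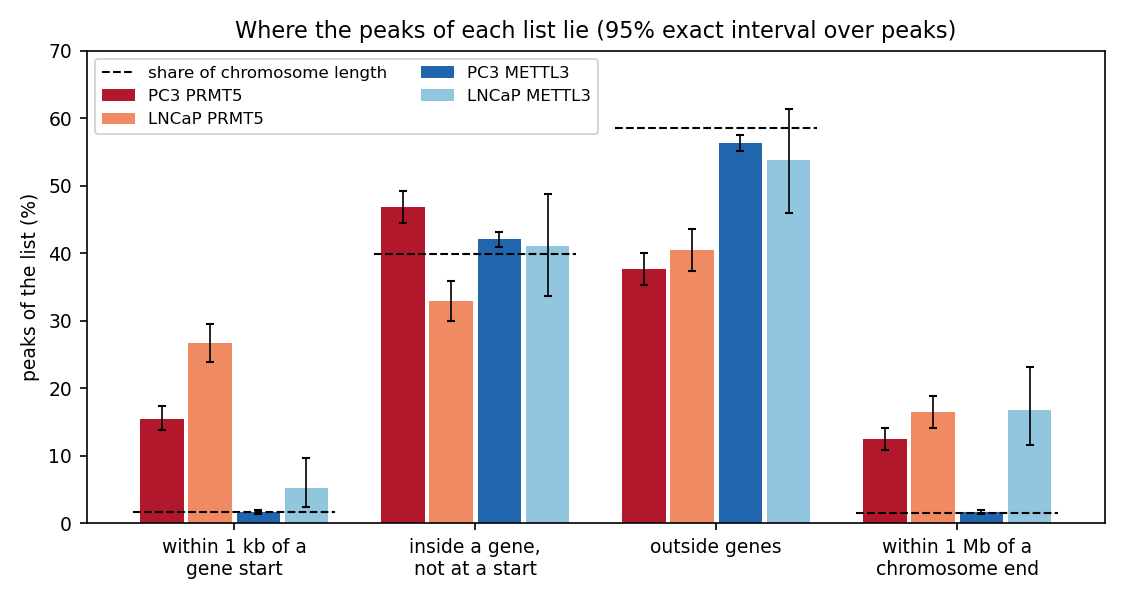
Share of the peaks of each list (y axis, percent) by position (x axis), with bars for the 4 lists, error bars for exact 95% intervals over peaks and dashed lines for the share of chromosome length. PC3 PRMT5 stood at 15.5% at starts and 12.5% near chromosome ends, where the length shares were 1.68% and 1.55%.

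Summits gathered just upstream of the start. Of the 257 peaks, 197 were within 1 kb of a listed start and 60 within reach of a gene end only, for genes with no listed start. For the 197, the median offset was 90 bp upstream (interquartile range 226 bp upstream to 79 bp downstream), 137 (69.5%) were upstream, and 57 were within 100 bp. The 250 bp before the start held 95 peaks, 5.72% of the list, and the 250 bp after it held 24. In LNCaP, 80.5% of the 221 such PRMT5 peaks were upstream, against 47.7% of 86 in the PC3 METTL3 list.

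**Figure D2:**
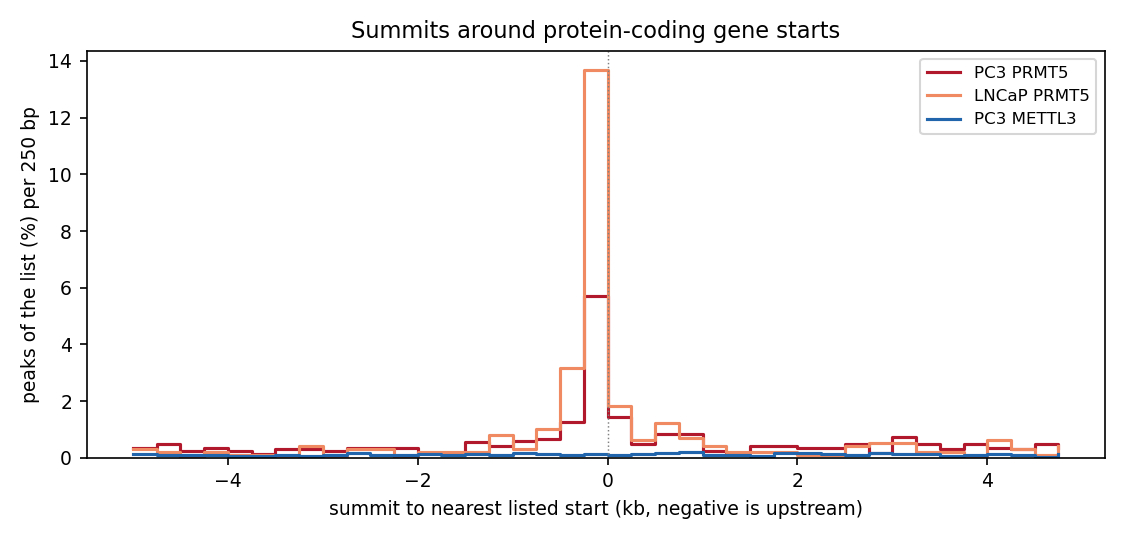
Share of each list's peaks (y axis, percent per 250 bp) by the distance from summit to the nearest listed protein-coding start (x axis, kb, negative upstream), as lines for PC3 PRMT5, LNCaP PRMT5 and PC3 METTL3. The PC3 PRMT5 line reaches 5.72% in the 250 bp before the start, and the METTL3 line stays near the floor.

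The peaks at starts marked 268 of 20037 protein-coding genes (1.34%), and in LNCaP 291 (1.45%). Of the 268 genes, 144 (53.7%) were also marked in LNCaP, which is 49.5% of the LNCaP genes. The LNCaP list has a control of its own. In 238 genes there was 1 peak and in 30 several. A peak stood at a single gene in 207 cases and at several genes in 50, where it cannot be assigned to 1 of them.

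The highest start peak, of fold 26.2, lay at chr19:40750250-40751049 between the divergent genes ACTMAP and SNRPA. ACTMAP encodes the protease that matures actin, and SNRPA encodes the A protein of the U1 splicing particle. In the LNCaP list the overlapping peak had a fold of 2.98. A peak of fold 22.4 followed at the tip of chromosome 3, at the predicted gene LOC124905351. VPS33A, a subunit of the HOPS complex that tethers vesicles to lysosomes, had a peak of fold 19.8 at chr12:122265369-122266993, 1625 bp wide. RMND1, needed for mitochondrial translation, had 19.2, and its LNCaP peak 20.2. WASHC2C had 19.0 in PC3 and 16.6 in LNCaP, although reads may be shared with its near-identical copy WASHC2A, which had 10.6 in PC3.

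Next came TRMO, a tRNA methyltransferase, with a fold of 16.6, and LAMP1 with 16.5. TAF6L, a subunit of histone acetyltransferase complexes, had 15.3 at chr11:62771220-62771744 and was the only gene of these 12 with no overlapping LNCaP PRMT5 peak. The splicing and transcription cofactor THRAP3 had 14.2 and the translation factor EIF4H 13.8. RNASEK, which binds the vacuolar proton pump, had 13.8, and ATP6V0D1, a subunit of the membrane sector of that pump, had 12.9. Of these 12 peaks, 4 thus belong to genes of lysosomes or of their fusion and acidification (VPS33A, LAMP1, RNASEK and ATP6V0D1). The lysosome and autophagy lists below, which hold these 4, take in 200 of 20037 protein-coding genes and 26 of the 268 marked ones. Those lists were drawn up with earlier results known, and VPS33A and RNASEK were placed by a gene end.

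Divergent promoters, where 2 genes run away from each other, held 29 of the 197 peaks at listed starts (14.7%). The share of divergent promoters among all listed starts was not counted, so this value cannot be called high or low. Beside ACTMAP and SNRPA the divergent pairs included RMND1 and DCPH1 with a gap of 340 bp and a fold of 19.2. HPS5, a subunit for the making of lysosome-related organelles, shared a peak of fold 10.8 with GTF2H1, a subunit of the transcription factor TFIIH. GALNS shared a peak of fold 10.8 at chr16:88856868-88857458 with TRAPPC2L, a trafficking gene, across 180 bp. ODAD3 and PRKCSH shared a peak of fold 10.8, and C19orf47 and PLD3, a lysosomal nuclease, a peak of fold 10.3.

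Lysosome genes were marked more often than protein-coding genes at large. Over 5 lists covering enzymes, proton pump, membrane proteins, the Ragulator and Rag GTPase complex, and autophagy with HOPS tethering, 26 of 200 genes (13%, 8.67 to 18.5) had a peak at the start, beside 1.34% of all protein-coding genes. Of the 26, 22 were also marked in LNCaP, and their median fold was 8.44, beside 6.44 over all 268 genes. With only peaks of fold 5 or more, 23 of the 26 were left. The study-wide pattern was known when the lists were drawn up, so their choice is not independent of the data. RNASEK, ATP6V1A, PIP4P1 and VPS33A had no listed start and were placed by a gene end.

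Lysosomal enzymes and activators were marked in 8 of 50 genes. GALNS had a fold of 10.8, NEU1 10.4 and GRN, which encodes progranulin, 10.1. Lower values were found at the galactosidase GLA with 5.64, on a peak it shared with HNRNPH2, at the glucosidase GAA with 3.97 and at the protease CTSA with 3.04. The peaks at GRN and NEU1 lay at chr17:44344959-44345438 and chr6:31862638-31863049.

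Membrane proteins and channels were marked in 8 of 38 genes. LAMP1 at chr13:113296874-113297936 led with 16.5, followed by SPNS1 with 11.8 and the phosphoinositide phosphatase gene PIP4P1 with 10.4. The acetyl-CoA transporter SLC33A1 had 8.06, MFSD1 7.95, the calcium channel MCOLN1 6.21, CLN3 5.54 and CD68 5.30. The order differed in the LNCaP list, where PIP4P1 had 60.8, SLC33A1 29.7, MCOLN1 17 and LAMP1 6.58. MFSD1 and CD68 had no LNCaP start peak.

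The vacuolar proton pump, which acidifies the lysosome, was marked in 4 of 28 genes. After RNASEK and ATP6V0D1, ATP6V1A had 6.41 on a peak it shared with NAA50, and ATP6V1G1 had 5.43, where LNCaP had 32.4. Peaks inside genes are not in this count. ATP6V0C, the ring subunit of the pump, had 4 of them, with folds from 2.64 to 8.53.

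Ragulator, Rag GTPases and folliculin partners, which place mTORC1 on the lysosome, were marked in 3 of 34 genes. RRAGC had 11.5, the folliculin partner FNIP1 8.83 and the anchor subunit LAMTOR1 2.54, with 23.8 in LNCaP. Autophagy and HOPS genes were marked in 3 of 50, VPS33A, the ATG8-family gene GABARAP with 6.92 and the HOPS and CORVET core subunit VPS11 with 6.72. None of 24 MiT-TFE and related transcription factor genes had a start peak, which at 3 counts of the total allows a share of up to 12.5%. In endosomal sorting, 5 of 45 genes were marked. These were WASHC2C, WASHC2A, WASHC5 with 4.18, the retromer subunit VPS26A with 3.93 and the ESCRT-I subunit VPS28 with 3.55. At a fold of at least 5 only the near-identical copies WASHC2C and WASHC2A were left.

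**Figure D3:**
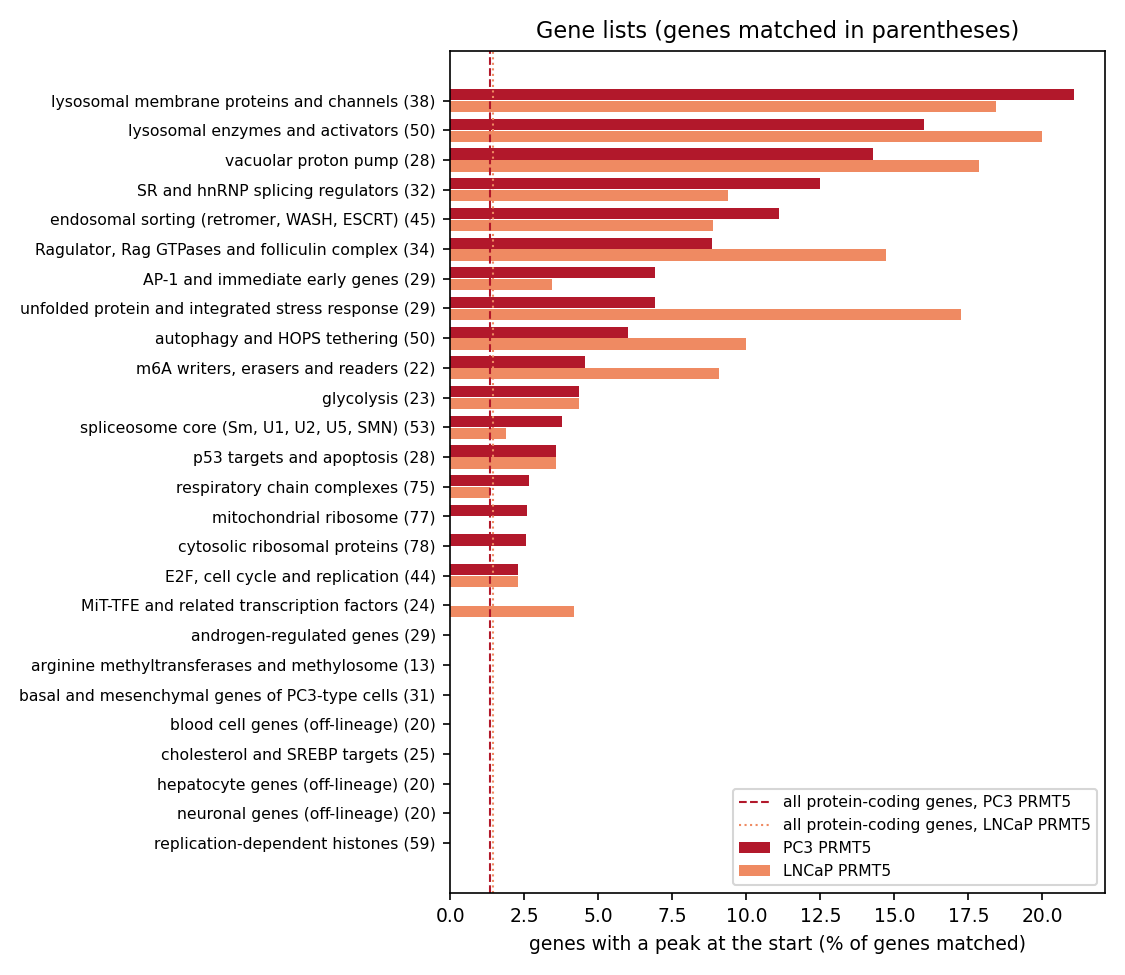
Share of the genes of 26 lists with a peak at the start (x axis, percent), as bars for PC3 PRMT5 and LNCaP PRMT5, with vertical lines at the shares of all protein-coding genes, 1.34% and 1.45%. In PC3 the highest bars are lysosomal membrane proteins (8 of 38), lysosomal enzymes (8 of 50) and the proton pump (4 of 28).

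None of 13 arginine methyltransferase and methylosome genes had a start peak. A list this short allows a share of up to 23.1%, well above the 1.34% of all protein-coding genes, so the count says little of the group. PRMT5 and WDR77 had their nearest peaks 1194 kb and 1110 kb away. Of 22 m6A writers, erasers and readers (4.55%) only RBM15, a subunit of the writer complex, was marked, with 3.96 in PC3 and 16.6 in LNCaP, and none at a fold of at least 5. METTL3, METTL14 and WTAP had no peak at the start or in the body.

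Of 32 genes for SR and hnRNP proteins, which steer splice site choice, 4 were marked. KHDRBS1, which encodes the RNA-binding protein SAM68, had 8.38, HNRNPH2 5.64, HNRNPM 5.01 and PTBP1 4.91. The core spliceosome was marked in 2 of 53, SNRPA and SNRPE with 5.91. Ribosomal proteins were marked in 2 of 78 genes, the mitochondrial ribosome in 2 of 77 and respiratory complexes in 2 of 75, shares of 2.56%, 2.60% and 2.67% that rest on pairs of genes.

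Stress and growth lists held 1 or 2 marked genes each, in shares from 2.27% to 6.90% beside 1.34% of all protein-coding genes, and counts this small do not set them apart. Of 29 AP-1 and immediate early genes, the phosphatase gene DUSP1 had 11 and CCN1 6.14. Of 29 stress response genes, the chaperone gene DNAJB9 had 5.89 and DDIT3, which encodes CHOP, 6.77. BAX, the effector of mitochondrial apoptosis, was the only marked gene of 28 p53 targets, with 11.5. CDK4, a kinase of G1 progression, was the only one of 44 cell cycle genes, with 10.0, and LDHA the only one of 23 glycolysis genes, with 4.39. Replication-dependent histones (59 genes), androgen-regulated genes (29), basal and mesenchymal genes (31), cholesterol genes (25) and neuronal, hepatocyte and blood cell genes (20 each) had none, which in lists of this size is close to the 1.34%. KLK3 and MYC had no peak at the start or in the body, and the nearest to MYC was 107 kb away with a fold of 4.13.

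For the E-box, all 22199 listed promoter windows of 300 bases were searched on both strands. CACGTG stood in 1851 of all windows (8.34%) and in 132 of the 265 with a PC3 PRMT5 summit within 1 kb of the start (49.8%, 43.6 to 56.0). The extended form TCACGTGA, which contains the E-box, stood in 1.27% of all windows and in 26.8% (21.6 to 32.6) of those with a peak. In the 130 windows with the summit inside them, the shares were 76.2% (67.9 to 83.2) and 44.6%. In 54 of these 130 windows (41.5%) there were at least 2 E-boxes, beside 0.851% of all windows. Windows of 1 gene or of a divergent pair overlap, so they are not independent.

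Seen from the promoter, 7.13% of windows with an E-box had a peak, beside 0.654% of those without. Of the 283 windows with the extended form, 71 (25.1%) had one. In LNCaP, 55.3% of 295 windows with a PRMT5 summit within 1 kb held an E-box, and in the PC3 METTL3 list 7.84% of 102.

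Other elements differed by fewer percentage points. The M-box TCATGTGA stood in 3.02% of the 265 windows and 0.932% of all. The AP-1 site TGANTCA stood in 6.79% of the 265 windows and 6.15% of all, and the CRE TGACGTCA in 2.64% and 2.26%. The GC box GGGCGG stood in 70.9% and 56.3%, CCAAT in 44.5% and 34.7%, the ETS site CCGGAAG in 20.0% and 12.8%, the NRF1-type site in 16.2% and 10.6%. TATAAA was less common, in 3.02% and 9.47%. The telomere repeat TTAGGG stood in 10.2% and 8.84%. A match is a string of letters and not a bound site.

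Base composition moved with the peaks, with a median of 65% G+C and 26 CG dinucleotides in the 265 windows, beside 62.3% and 21 in all. By band of G+C content, the E-box share of the peak windows was 33.3% beside 4.28% of all windows up to 55% G+C, 40.2% beside 9.52% from 55 to 65%, 62.3% beside 10.7% from 65 to 75%, and 53.6% beside 9.42% above 75%. The lowest band had 24 peak windows and the highest 28.

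The bases next to the E-box differed as well. Of 173 E-boxes in windows with a summit inside, a T preceded the core, read on either strand, on both sides in 43.9% and on neither side in 9.25%. Over all 2069 promoter E-boxes the shares were 15% and 46.7%. The extended E-box is the form with T on both sides. In position the E-boxes were alike, with a median position relative to the start of -71 bp in the first set and -74.5 bp over all windows.

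Counted over all forms of the E-box, summits lay nearer to it than to other common elements. Of 105 peaks with the summit inside a window, 80 had an E-box there, at a median distance of 30.5 bp, and 58 of these (72.5%) were within 50 bp. The GC box was as frequent, in 82 of the 105, with a median of 39.0 bp and 53.7% within 50 bp. CCAAT was present in 47, with 39.0 bp and 51.1%. The extended E-box alone was present in 45, with 38.5 bp and 57.8%, close to the values of the GC box and CCAAT. Summits and elements both gather upstream of starts, and no test of these distances was run.

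**Figure D4:**
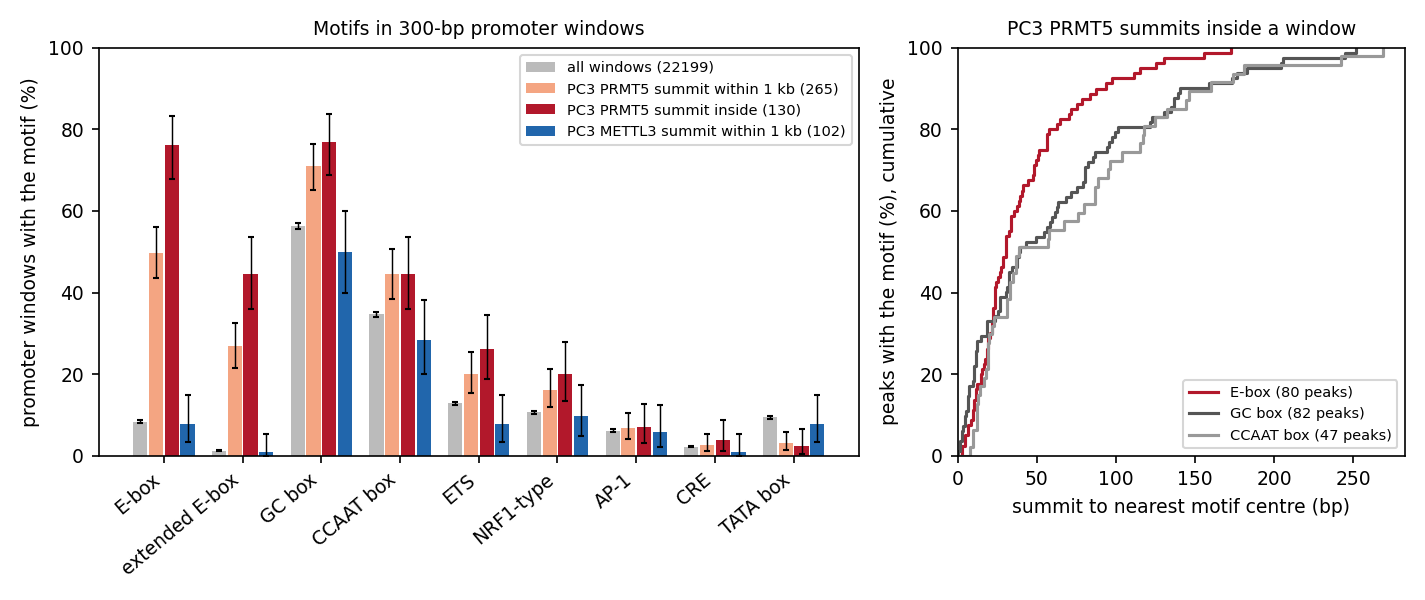
Left, share of 300-bp promoter windows with each element (y axis, percent), for all windows, those with a PC3 PRMT5 summit within 1 kb or inside, and those of PC3 METTL3, with exact 95% intervals. Right, cumulative share of PC3 PRMT5 peaks (y axis, percent) by the distance from summit to the nearest element (x axis, bp). E-boxes rise from 8.34% to 49.8% and 76.2%, and their line is above the other 2 at 50 bp.

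Peaks with an E-box were more often high and more often present in both lines. For the 45 peaks with an extended E-box the median fold was 6.43, for 35 with another E-box 8.06 and for 25 with none 5.88. A fold of at least 10 was reached by 24.4%, 37.1% and 8.00% of them. Overlap with a LNCaP PRMT5 peak was found for 84.4%, 62.9% and 32.0%. Among windows whose peak was shared with LNCaP, 78 of 88 (88.6%, 80.1 to 94.4) held an E-box, and among the others 21 of 42 (50.0%, 34.2 to 65.8).

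Marked promoters of lysosome and of other genes both held E-boxes. Of the marked windows of the 5 lysosome and autophagy lists, 17 of 23 (73.9%, 51.6 to 89.8) held one, and of those of other genes 115 of 242 (47.5%, 41.1 to 54.0). Among lysosome windows with no peak, 20 of 196 (10.2%) did, near the 8.34% of all windows. The extended form stood in 52.2% (30.6 to 73.2) of the 23 and 24.4% (19.1 to 30.3) of the 242. The M-box TCATGTGA, another element read by MiT-TFE factors and searched after the data were seen, stood in 17.4% (4.95 to 38.8) and 1.65% (0.452 to 4.18), which is 4 windows in each set. Among the 196 lysosome windows with no peak, 9 (4.59%) held the M-box, beside 0.932% of all windows, so it was commoner in lysosome promoters without a peak too. These differences were not tested.

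Inside genes, peaks showed little preference for position. For genes of known strand, the 5 equal stretches of the gene from start to end held 15.4%, 20.5%, 21.4%, 20.8% and 21.9% of 552 peaks, and 17 (3.08%) lay within 1 kb of the 3′ end. Peaks within 1 kb of a start are not among them, which lowers the first value. In all, 563 genes had a body peak and 39 had at least 3. SUN1, a nuclear envelope protein of the LINC complex, had 20, and GET4, which acts in the delivery of tail-anchored proteins, had 12. KCNMA1, the gene of a calcium-activated potassium channel, had 16 along 768 kb. The peptidase gene DPP9 and the phosphatase-like gene PTPRN2 had 6 each.

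Away from chromosome ends, the highest peaks inside genes were at COLEC11, a collectin, with 22.8, and in U2AF2, with 19.8. U2AF2 is a splicing factor that recognises the 3′ splice site. They were followed by TCEA3 with 15.4, PPP1R15A, the stress-induced regulator of eIF2α phosphatase, with 15.3 and ODAD3 with 15.2. Those at COLEC11 and U2AF2 overlapped LNCaP PRMT5 peaks and the other 3 did not. With chromosome ends included, the highest inside a gene was 28.6 at chr9:9970-10494, in the predicted gene LOC102724813, which overlapped a LNCaP PRMT5 peak.

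Outside genes, the median distance to the nearest protein-coding gene was 23.1 kb. Of the 626 peaks, 203 (32.4%) were within 10 kb and 140 (22.4%) more than 100 kb away. The highest away from chromosome ends was at chr17:74513858-74515177, 16.9 kb from a listed start of CD300LB, with 24 in PC3 and 22.3 in LNCaP. Another, 81.7 kb from a listed start of MRPL14, had 23.2 and also overlapped a PC3 METTL3 peak of fold 10.2. The peak of largest −log10 q away from the ends, 2530, had a fold of only 2.2. It lay 503 kb from a listed start of PROS1, at chr3:93470415-93470810.

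With genes of every type counted, 22% of the peaks were at a start and 424 genes were marked. Peaks lay within 1 kb of an end of lncRNA genes in 123 cases, 81 of them not at a protein-coding gene, which marked 108 lncRNA genes (0.590%). For miRNA genes there were 15 peaks at 17 of 1913 genes (0.889%), among them MIR711 with 7.95 inside COL7A1 and MIR324 with 7.17. The MIR941 copies among these 17 genes shared a single peak. Peaks marked 2 of 443 tRNA genes (0.451%) and 4 of 1199 snoRNA genes (0.334%). Of 154 snRNA genes 1 (0.649%) was marked, RNU5E-1, which encodes a U5 spliceosomal RNA, with 6.34.

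Peaks of the list came in runs. Joining summits at most 5 kb apart gave 1348 loci, of which 1178 had 1 peak, 145 had 2 or 3 and 25 had at least 4. The loci with several peaks held 483 peaks (29.1%), beside 25% in the LNCaP PRMT5 and 7.18% in the PC3 METTL3 list. Loci with a gene start made up 14.8% of those with 1 peak, 20.2% with 2, 34.6% with 3 and 56.0% (34.9 to 75.6) with at least 4. Overlap with LNCaP PRMT5 went from 16.5% to 27.7%, 38.5% and 56.0%. Each share counts loci with at least 1 such peak, which a longer run meets more easily.

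The largest run, from SUN1 to GET4 at chr7:853826-897442, held 29 peaks in 43.6 kb with folds from 2.99 to 14, and 11 of them overlapped a LNCaP PRMT5 peak. Its broad peak at GET4, 1675 bp wide, had 7.81 in PC3 and 45.5 in LNCaP. A run over RAD9A, a checkpoint clamp subunit, and PPP1CA, a protein phosphatase catalytic subunit, at chr11:67384875-67400515 held 8 peaks in 15.6 kb with folds from 5.13 to 8.66, and 1 overlapped a LNCaP PRMT5 peak. No PC3 METTL3 peak lay in either run.

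**Figure D5:**
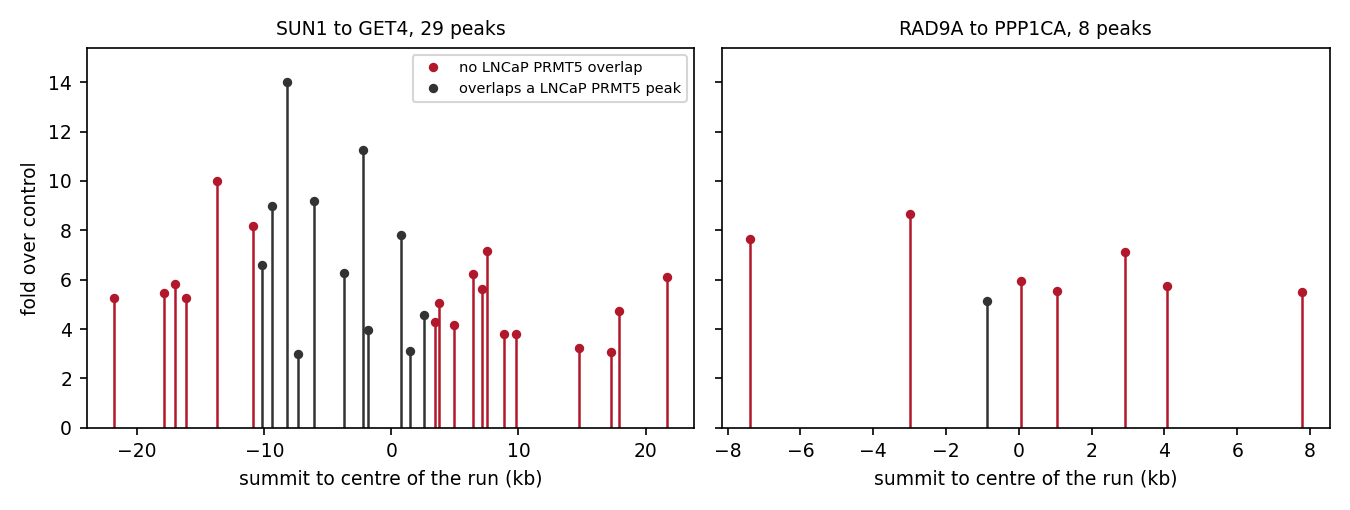
Fold over control (y axis) of the 29 peaks of the SUN1 to GET4 run and the 8 of the RAD9A to PPP1CA run by the distance of the summit from the centre of the run (x axis, kb), dark where the peak overlaps a LNCaP PRMT5 peak. Shared peaks number 11 in the first run and 1 in the second.

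Smaller runs ranged from none to all of their peaks shared with LNCaP. DPP9 (8 peaks, folds up to 7.02) and the run over CYP27B1, METTL1 and EEF1AKMT3 (7 peaks, up to 8.53) overlapped no LNCaP PRMT5 peak. METTL1 encodes a tRNA methyltransferase and CYP27B1 the enzyme that activates vitamin D. By contrast, all 6 peaks at TSPAN31, CDK4 and MARCHF9, which lie on the same chromosome near METTL1, all 6 at GTPBP6 and all 5 at APEX1 and PIP4P1 did. Others were mixed, with 2 of 6 shared at GALNS and 1 of 6 at WBP2. The run over ATP6V0C and AMDHD2 held 8 peaks, 1 of them shared, among them the widest of the list, 2387 bp, with a fold of only 2.64.

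Chromosomes differed in the number of peaks. Over the list there were 0.538 peaks per Mb and 8.29 per 100 protein-coding genes. Chromosome 19 had 194 peaks, 3.31 per Mb and 13.4 per 100 genes, and 53 of the 257 start peaks. Chromosome 17 had 163, or 13.9 per 100 genes. Per gene, chromosome 21 was highest with 23 and chromosome 10 next with 15.4. Per gene the lowest were X with 3.07 and chromosome 6 with 3.72, and per Mb Y with 0.105 (6 peaks) and chromosome 13 with 0.149. PC3 chromosomes are rearranged and vary in copy number, and no copy number was measured, so its part in these counts was not tested.

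Chromosome ends carried a share of the list out of proportion to length. Within 1 Mb of an end lay 207 peaks (12.5%, 10.9 to 14.1) in 1.55% of the length. Of these, 41 were on chromosome 7, among them the 29 peaks of the SUN1 to GET4 run, so a single locus adds to the share. In the other lists the share was 16.4% (LNCaP PRMT5), 16.8% (LNCaP METTL3, 29 of 173 peaks) and 1.64% (PC3 METTL3). An excess at the ends was thus not particular to the PRMT5 lists, and no difference was tested. The far end of each chromosome was taken as its outermost gene or peak in the 4 lists, not from a genome sequence. Within 12 kb of the outermost positions lay 27 peaks on 18 chromosomes, with a median fold of 12.7 (range 7.73 to 32.9). All 27 overlapped a LNCaP PRMT5 peak. A peak that itself sets a far end is within 12 kb of it by definition, so the count of 27 is not independent of the peaks. Of the 20 highest folds of the list, 9 lay within 1 Mb of an end, among them the highest, 47.1 at chr17:113142-113466. Sequence at chromosome ends is repeated between chromosomes, so reads there may belong to several places.

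Of the 1661 peaks, 294 (17.7%, 15.9 to 19.6) overlapped a LNCaP PRMT5 peak by at least 1 bp, and 298 of the 980 LNCaP peaks (30.4%) did the reverse. The overlap was 45.1% (38.9 to 51.4) at starts, 9.13% (7.20 to 11.4) inside genes, 17.1% outside and 38.6% within 1 Mb of chromosome ends. Without the ends it was 14.7%. By quartile of fold from low to high it was 22.2%, 6.68%, 9.31% and 32.7%, so it was highest at both extremes.

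With PC3 METTL3, 151 peaks (9.09%) overlapped, which is 148 of 7453 METTL3 peaks (1.99%). None of the 257 start peaks did, which at 3 counts of the total allows a share of up to 1.17%, while 69 of those inside genes (8.87%) and 82 outside (13.1%) did. These lists share the PC3 control. Start peaks of both lists were found at 2 genes, NAA50 and the predicted gene LOC107987432, named because they were the only ones. Their peaks did not overlap. PC3 METTL3 start peaks marked 122 of 20037 protein-coding genes (0.609%), and 2 of the 268 PRMT5 genes is near that share. Of the METTL3 peaks, 120 of 7453 (1.61%) were at a start, so few could overlap there. Ranked by the smaller of the 2 folds, the first shared regions were near EDIL3, with 13.8 for PRMT5 and 10.2 for METTL3, and near MRPL14, with 23.2 and 10.2. With LNCaP METTL3, which shares neither antibody nor control, 37 peaks (2.23%) overlapped, which is 36 of the 173 LNCaP METTL3 peaks (20.8%).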

How the data were processed

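The submitters' processing notes name hg38 and list MACS2 2.1.0, Bowtie 1.1.1, Trimmomatic 0.33, ChIPseeker and bcl2fastq 2.17. Settings and the treatment of duplicates are not given in the sources used for this text. A deposited list comes from a single library with its line's control, without pooling. It gives per peak the authors' score, a fold (a ratio over control), −log10 p, −log10 q and a summit. The authors' score equalled the −log10 q multiplied by 10 and was not used. The largest q of the PC3 PRMT5 list was 0.0495. Depth is unknown, and the number of peaks called rises with depth.

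From these, peaks were placed by summit against 20037 RefSeq protein-coding genes of GRCh38.p14, of which 15843 have listed starts (22199 in all). For the other 4194 either end within 1 kb stood in, where 3 kb had been planned. The terms 'inside' and 'outside' follow gene bodies, since exons and repeats were not annotated here. A total of 26 gene lists with 975 names (972 matched) and the motifs were searched. Members and lists were chosen with earlier results of these data known. Named genes followed a rule on fold, width and number of peaks: the 12 highest start peaks, the 10 highest elsewhere and the highest members per list, with some genes of interest always looked up. Results for certain genes are not reported here. With 1 library per group there is no test. Position and overlap steps were tested on simulated data. Alternatives varied the window, thresholds, overlap and gene types. Python 3.11.15, pandas 2.3.3, NumPy 2.4.6, SciPy 1.17.1 and matplotlib 3.10.9 were used.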

Additional observations from a re-analysis of the deposited data

Results flagged for a closer look

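The PC3 PRMT5 list held 60 entries on 15 contigs outside chromosomes 1 to 22, X and Y, which enter no comparison above. They stand out because the signal lies in data outside the main measurement, already above the control by the authors' calls. Their median fold was 2.94 and the highest 8.02, and 24 were on 1 contig and 12 on another. None lay on the mitochondrial genome. Such contigs hold repeated sequence, and its part in these entries was not tested.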

How the results depend on the processing

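Of 88 alternatives over 32 results, 61 stayed within the spread allowed by counting error or by 1.5 times, and no value has a replicate check. The share of peaks at starts, 15.5%, was 11.5% with a window of 500 bp, 24.4% with 3 kb, 22% with genes of all types and, in alternatives chosen after seeing the data, 11.9% with listed starts only and 19.6% with 3 kb for genes without a listed start. With genes of all types, 424 genes were marked in place of 268, 50.5% of peaks lay inside genes and 27.6% outside. Within 500 kb of chromosome ends lay 5.66% of peaks. The median fold was 6.19 at a −log10 q of at least 3 and 6.41 at a fold of at least 5. The overlap with LNCaP PRMT5 was 11.8% when 50% of both peaks had to overlap, 14% at a fold of at least 5 and 14.7% without chromosome ends. That with PC3 METTL3 was 5.18% and 5.34% under the first 2 of these, and that with LNCaP METTL3 was 0.637% at a fold of at least 5. The E-box share was 76.2% with the summit inside the window. Marked genes fell from 5 to 2 in endosomal sorting, from 2 to 1 in the mitochondrial ribosome and from 1 to 0 in the m6A and glycolysis lists at a fold of at least 5, and went from 2 to 4 (stress), 1 to 3 (p53) and 0 to 1 (neuronal) with 3 kb. These changes follow from the windows, gene sets and thresholds themselves. No paired analysis was possible because each group had 1 library and no result comes from a test. Peak numbers are limited by unknown depth.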
